A study of Mus musculus with 12 samples.

Results

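Chemokine ligand genes were followed across 3 Hotair genotypes in mouse tail tip fibroblasts. The members are all rows of the expression table whose symbol starts with Ccl or Cxcl and a digit, 45 of its 24132 rows, which carry 35 different symbols because several genes have repeated rows. Of these, 18 rows (16 symbols) reached 0.5 RPKM in 2 or more of the 6 RNA libraries and were tested. RPKM is a read count divided by gene length and by sequencing depth. The other 27 rows (19 symbols) were below that level.

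Chemokines are small secreted proteins that direct the movement of cells carrying matching G protein-coupled receptors, and they are held on surfaces and matrix by heparan sulfate. CXC and CC ligands are told apart by the spacing of their first cysteines. Fibroblasts are a known source of ligands for neutrophils and monocytes, many of which are induced by interleukin 1, tumor necrosis factor and NF-kB, while others, such as Cxcl12 and Cxcl14, are made without inflammation.

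The cells were fibroblasts from the tail tips of newborn mice, backcrossed to C57BL6 (over 97% similar by the labels). They were wild type, heterozygous or knockout for Hotair, a long noncoding RNA of the HoxC cluster that the study disrupted, and each genotype had 2 libraries of polyadenylated RNA. No treatment is named in the labels, and nothing in them says that the 2 libraries of a genotype came from separate animals or cultures, so the p-values measure only the spread between these libraries. Another 6 libraries, of ChIP-seq, are not analysed here.

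Hotair stood at 0.247 and 0.183 RPKM in wild type, 0.213 and 0.172 in heterozygous and 0 in both knockout libraries. The libraries held 27.9M to 33.2M reads in wild type and heterozygous cells and 46.0M and 48.1M in knockout cells, so 3 reads in a gene a kilobase long would give 0.0624 to 0.108 RPKM. All 12 fibroblast markers were at or above 0.5 RPKM in 2 libraries, with summed levels of 5228 and 5248 RPKM in wild type, 4761 and 4860 in heterozygous and 4302 and 4338 in knockout. In knockout against wild type 4 of them (Lum, Dcn, Pdgfra and Fbn1) rose and 8 fell. Of all genes tested, 41.4% were called higher and 24.7% lower. The split was 4 and 7 under quantile normalization and 3 and 8 under median scaling. Lum went from 2.31 and 2.32 RPKM in wild type to 13.4 and 13.9 in knockout. Vim, the highest of the 12, went from 2665 and 2690 to 2147 and 2166. Neutrophil markers summed to at most 0.405 RPKM and T and B cell markers to at most 0.198. In bulk RNA, fewer cells of a type and less RNA per cell cannot be told apart.

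In knockout against wild-type cells, 10 of the 18 ligand rows rose and 0 fell. They were led by Cxcl5, a neutrophil attractant, Cxcl14, a ligand of resting skin and connective tissue, and Ccl9, a ligand of the receptor Ccr1. Across all 12065 genes tested, 41.4% were called higher and 24.7% lower. A called difference of at least 2-fold on the log2(RPKM + 1) scale was seen for 3 rows (Cxcl5, Cxcl14 and Ccl9), against 2.3% of all genes tested. The median log2 difference was 0.15 over the 18 rows and 0.07 over all genes tested. Calls are from limma with Benjamini-Hochberg adjustment at 0.05 over all genes tested. The split depends on scaling between libraries: 9 rows rose and 5 fell after quantile normalization, and 7 rose and 3 fell when library medians were set equal, which moved the median over all genes to -0.02 and -0.03. Over all genes tested, the share of calls that were higher went from 62.6% to 46.9% and 44.1%. The rows called lower were Cxcl10, Cxcl12 and the 3 Ccl27b rows under quantile normalization, and Cxcl10, Cxcl12 and Ccl8 under median scaling. Ccl9, Ccl5 and Cxcl16 reached 0.5 RPKM in 2 libraries only through knockout, so the choice of rows favoured a difference from wild type. For that reason nothing is read from their part of the count. Nothing is read from the part of Ccl11 either, which reached that level only through heterozygous and knockout libraries. The other rows that rose were Cxcl1, Cxcl5, Cxcl14, Ccl2, Ccl7 and Ccl27a. Of these, Ccl2, Ccl7 and Ccl27a were not called higher under median scaling. The count of 10 therefore cannot be compared with the 41.4% of all genes tested.

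In heterozygous against wild-type cells, 9 rows rose and 0 fell, against 34.1% of all genes tested called higher and 15.8% lower. The rows that rose were Cxcl1, Cxcl3, Cxcl5, Cxcl12, Cxcl14, Ccl2, Ccl7, Ccl8 and Ccl11. Since Ccl11 was tested only because of its heterozygous and knockout values, nothing is read from its part of the count. Cxcl5 alone was at least 2-fold apart, against 1.07% of all genes tested, and the median log2 difference was 0.20 over the rows and 0.07 over all genes tested. With quantile normalization the split was 9 higher and 5 lower, and with median scaling 9 and 3. Of all calls, 68.3% were higher, and 50.9% and 42.3% under these scalings.

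Between knockout and heterozygous cells the rows divided. In knockout 6 rows were higher (Ccl9, Ccl5, Cxcl14, Cxcl16, Ccl25 and Ccl27a), against 26.2% of all genes tested, and 5 were lower (Ccl2, Ccl7, Ccl8, Cxcl3 and Cxcl12), against 23.3%. Ccl9 was at least 2-fold apart, and 0.655% of all genes tested were. Since Ccl9, Ccl5 and Cxcl16 were tested only because of their knockout values, nothing is read from their part of these counts either. The count of 6 therefore cannot be compared with the 26.2% of all genes tested. The other rows higher in knockout were Cxcl14, Ccl25 and Ccl27a, and the calls of Ccl25 and Ccl27a were lost in some alternative fits. The median log2 difference was 0.06 over the rows and 0.01 over all genes tested. With quantile normalization the split was 4 higher and 6 lower, and with median scaling 6 and 6. Of all calls, 52.9% were higher, and 47.7% and 46.6% under these scalings. The 3 comparisons share libraries, so their values are set side by side and are not separate evidence.

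**Figure D1:**
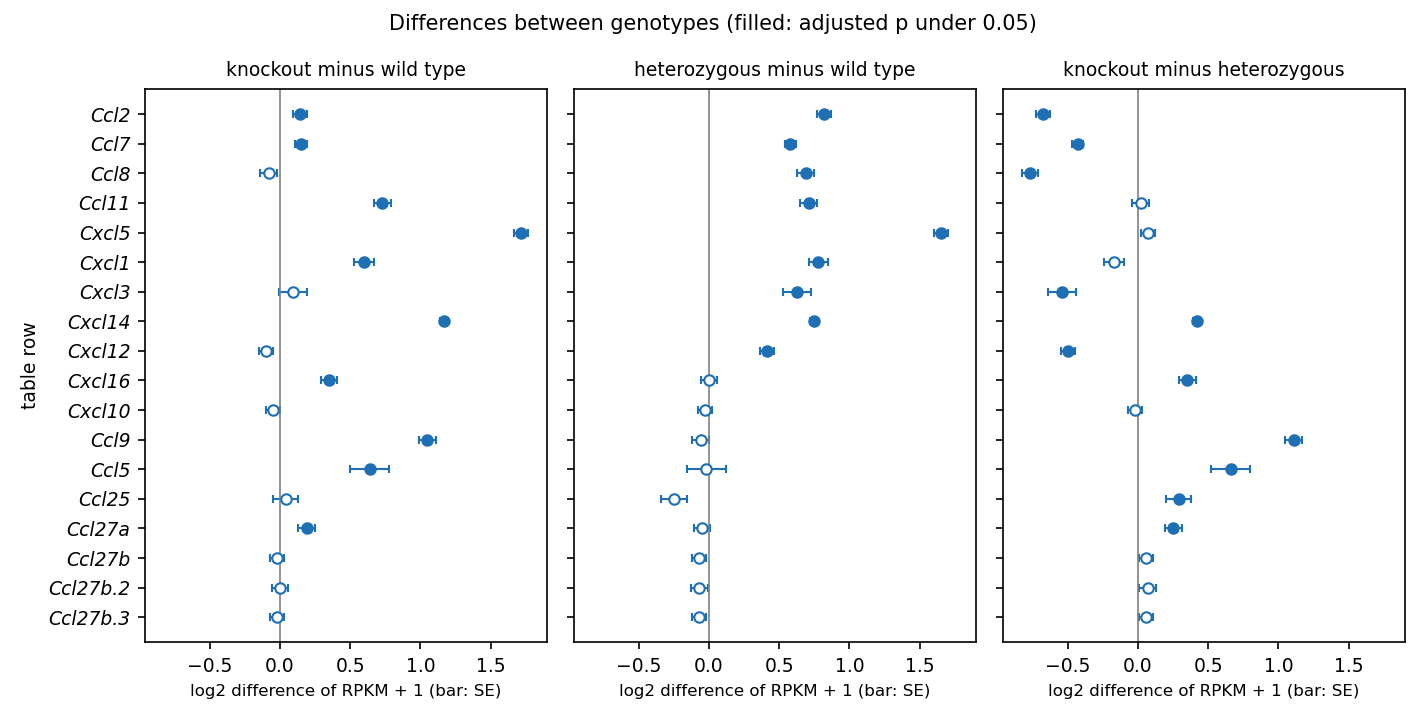
Differences between genotypes for the 18 rows (y axis), as log2 differences of RPKM + 1 (x axis) from limma with SE bars, from 2 libraries per genotype. Filled points are called at an adjusted p under 0.05. Cxcl5 lies at 1.72 and 1.65 against wild type and at 0.07 between knockout and heterozygous, while Ccl2, Ccl7 and Ccl8 lie right of 0 in the middle panel and left of it in the last.

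Summed over all 45 rows, repeats included, ligand RPKM was 94 and 90.4 in wild type, 158 and 157 in heterozygous and 134 and 138 in knockout libraries. The sum was thus lowest in wild type and highest in heterozygous cells, with no overlap. A few genes made up most of it: the 5 highest took 86.7% to 90.1% of the sum in each library. Ccl2 and Ccl7 together gave 57.1% and 56.4% in wild type, 54.7% and 54.3% in heterozygous and 42.3% and 43.5% in knockout. Cxcl14 gave 17.3% and 18.3%, 17.8% and 18%, and 28.5% and 27.7%. The knockout mixture therefore held a larger part of Cxcl14 and a smaller part of Ccl2 and Ccl7 than that of the other genotypes.

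**Figure D2:**
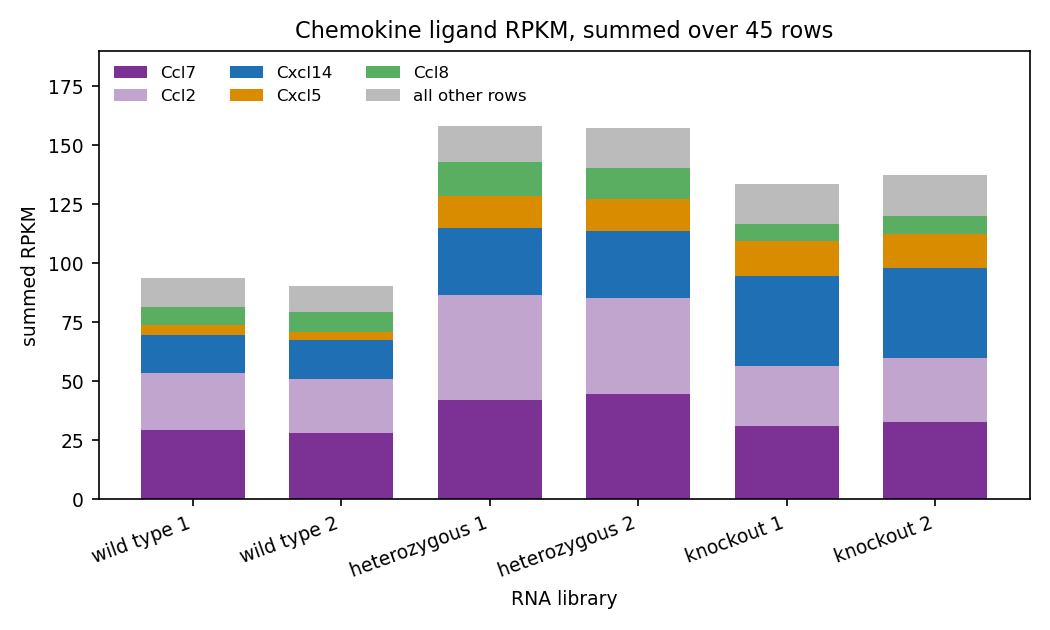
Summed RPKM of the 45 chemokine ligand rows (y axis) in each RNA library (x axis), stacked by gene, with rows other than the 5 named genes in grey. The heterozygous bars reach 158 and 157 RPKM, the knockout bars 134 and 138 and the wild-type bars 94 and 90.4.

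Cxcl5, Cxcl1 and Cxcl3 bind Cxcr2, the main chemokine receptor of neutrophils. Their genes lie near each other on chromosome 5. Cxcl5 (LIX) stood at 3.94 and 3.55 RPKM in wild type, 13.9 and 13.8 in heterozygous and 14.9 and 14.3 in knockout. Both mutant genotypes lay far above wild type, and the knockout libraries lay just above the heterozygous ones. The log2 difference was 1.72 ± 0.05 (SE) in knockout (limma, Benjamini-Hochberg adjusted p = 4.11e-07) and 1.65 ± 0.05 in heterozygous cells (adjusted p = 9.48e-07). Between knockout and heterozygous it was 0.07 ± 0.05, which did not pass the test. The ratio of knockout to wild-type RPKM was 3.9, with a 95% counting interval of 3.48 to 4.37. This interval and those below cover counting error only.

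Cxcl1 (KC), the classic neutrophil attractant of activated mouse fibroblasts, stood at 2.33 and 2.45 RPKM in wild type, 4.43 and 5.18 in heterozygous and 4.01 and 4.27 in knockout. The heterozygous libraries were highest and the wild-type ones lowest. Its log2 differences from wild type were 0.78 ± 0.07 in heterozygous and 0.60 ± 0.07 in knockout cells (adjusted p = 0.000142 and 0.000214). The difference of knockout from heterozygous, -0.17 ± 0.07, did not pass the test (adjusted p = 0.0698). It passed in 4 of 13 alternative fits, among them the fit without heterozygous library 1 (-0.27, adjusted p = 0.017).

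Cxcl3, a close relative of Cxcl1, stood at 2.01 and 1.44 RPKM in wild type, 2.94 and 3.46 in heterozygous and 1.91 and 1.86 in knockout. The knockout values lay between the wild-type libraries, and the heterozygous values above all others. The log2 difference was 0.63 ± 0.10 in heterozygous against wild type (adjusted p = 0.00242) and -0.54 ± 0.10 in knockout against heterozygous (adjusted p = 0.00472). For knockout against wild type it was 0.09 ± 0.10 and did not pass. Without wild-type library 1 it did (0.24, adjusted p = 0.0499), and without wild-type library 2 its sign turned (-0.06). Cxcl1 and Cxcl3 were thus both called higher in heterozygous cells, and of the pair only Cxcl1 was called higher in knockout cells, a contrast between the genes that was not tested.

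The bases before the RefSeq starts of Cxcl1 and Cxcl3 are shown because both genes were called higher in heterozygous cells, and those of Cxcl14 and Ccl9 because these rows were among the largest differences in knockout cells. Each is the 250 bases before the start in RefSeq (GRCm38.p6), written 5′ to 3′ on the gene's strand, and capitals mark matches to the NF-kB motif GGNNNTTCC on either strand.
Cxcl1, chr5:90890995-90891244, plus strand: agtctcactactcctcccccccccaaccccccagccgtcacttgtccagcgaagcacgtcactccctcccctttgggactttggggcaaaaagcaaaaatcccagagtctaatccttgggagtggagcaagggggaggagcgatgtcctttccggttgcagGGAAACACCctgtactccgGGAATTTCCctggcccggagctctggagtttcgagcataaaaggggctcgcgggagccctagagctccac
Cxcl3, chr5:90785851-90786100, plus strand: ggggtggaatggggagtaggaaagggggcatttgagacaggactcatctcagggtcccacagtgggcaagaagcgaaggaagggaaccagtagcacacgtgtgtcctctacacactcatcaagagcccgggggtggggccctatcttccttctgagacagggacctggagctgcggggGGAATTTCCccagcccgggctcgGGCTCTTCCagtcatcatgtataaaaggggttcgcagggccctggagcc
Cxcl14, chr13:56296552-56296801, minus strand: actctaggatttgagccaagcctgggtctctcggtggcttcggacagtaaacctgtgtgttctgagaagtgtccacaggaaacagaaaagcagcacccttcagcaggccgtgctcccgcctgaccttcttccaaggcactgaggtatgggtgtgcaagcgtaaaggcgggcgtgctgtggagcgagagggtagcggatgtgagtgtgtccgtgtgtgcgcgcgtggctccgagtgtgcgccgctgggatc
Ccl9, chr11:83578637-83578886, minus strand: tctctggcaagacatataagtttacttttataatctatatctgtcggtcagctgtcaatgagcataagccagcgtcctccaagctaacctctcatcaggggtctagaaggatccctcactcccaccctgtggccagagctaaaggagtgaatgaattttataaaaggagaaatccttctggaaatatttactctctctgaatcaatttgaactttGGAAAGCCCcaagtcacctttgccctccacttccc

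Both Cxcl1 and Cxcl3 held GGAATTTCC, 70 and 72 bases before their starts. It lies in their longest shared run, gggaatttccc, of 11 bases. Cxcl3 also held TATAAA 30 bases before its start. RefSeq windows were at hand for 10 of the 16 symbols, some with several starts. On either strand, 4 of the 16 windows of these symbols (25%) held an NF-kB match (Cxcl1, Cxcl3, Cxcl10 and Ccl9), and so did 15.7% of all 32851 windows of the same length. TATAAA was in 5 of the 16 (Cxcl3, Ccl8, Ccl9, Ccl25 and Ccl27b) and in 12.4% of all windows. The AP-1 motif TGANTCA was in 4 of the 16 (Cxcl10, Ccl9, Ccl27a and Ccl27b) and in 6.75% of all windows. Some windows of Ccl27a and of Ccl27b overlap, so the windows are not independent. In the 4 windows shown, TATAAA matches on opposite strands overlapped in Ccl9. GGAATTTCC in Cxcl1 and Cxcl3 and TGAATCA in Ccl9 each matched on both strands at the same place. No other matches overlapped. A match says only that the letters are there. Of the genes with an NF-kB match, Cxcl1, Cxcl3 and Ccl9 passed the test in some comparison and Cxcl10 in none. Ccl9 was tested only because of its knockout values. Of the genes with windows but no such match, Cxcl12, Cxcl14, Ccl8, Ccl25 and Ccl27a passed in some comparison and Ccl27b in none. Whether matches relate to the calls was not tested.

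Ccl2, Ccl7, Ccl8 and Ccl11 form a group of neighbours on chromosome 11. Ccl2 (MCP-1), the main attractant of Ccr2-bearing monocytes, stood at 24.2 and 23 RPKM in wild type, 44.5 and 40.8 in heterozygous and 25.2 and 27.2 in knockout. Heterozygous cells were well above both other genotypes, and knockout lay just above wild type. The log2 difference was 0.82 ± 0.05 for heterozygous against wild type (adjusted p = 3.39e-05) and -0.68 ± 0.05 for knockout against heterozygous (adjusted p = 9.75e-05). For knockout against wild type it was 0.14 ± 0.05 (adjusted p = 0.048), and that call was lost in 6 of 13 alternative fits. Those included the fits without wild-type library 1 (0.18, adjusted p = 0.058), wild-type library 2 (0.11, 0.204) and knockout library 2 (0.09, 0.254).

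Ccl7 (MCP-3), another monocyte attractant, had the highest RPKM of the 45 rows in wild type, at 29.4 and 28 RPKM. It stood at 42.1 and 44.5 in heterozygous and 31.3 and 32.6 in knockout cells. The genotypes did not overlap and had the same order as for Ccl2. The log2 differences were 0.58 ± 0.04 for heterozygous against wild type, -0.43 ± 0.04 for knockout against heterozygous and 0.15 ± 0.04 for knockout against wild type (adjusted p = 4.48e-05, 0.000194 and 0.0129). The last call was lost without wild-type library 2 (0.11, adjusted p = 0.0734), without knockout library 2 (0.12, 0.0819) and under median scaling (0.04, 0.378).

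Ccl8 (MCP-2) stood at 7.67 and 8.15 RPKM in wild type, 14 and 12.8 in heterozygous and 7.1 and 7.75 in knockout cells. Wild type and knockout overlapped, with heterozygous above both. The log2 differences of heterozygous from wild type (0.69 ± 0.06, adjusted p = 0.000119) and of knockout from heterozygous (-0.77 ± 0.06, adjusted p = 8.41e-05) passed the test. That of knockout from wild type (-0.08 ± 0.06, adjusted p = 0.256) did not, although it did under median scaling (-0.19, adjusted p = 0.0232).

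The level of these 3 ligands was highest in the heterozygous libraries, and so was that of Sox10, S100b and Foxd3, genes of Schwann and neural crest cells. Sox10, a transcription factor of these cells, stood at 3.2 and 3.67 RPKM in wild type, 5.07 and 4.92 in heterozygous and 2.02 and 2.1 in knockout libraries. Foxd3 stood at 1.12 and 1.3, 2.23 and 1.93, and 0.78 and 0.878 RPKM, and S100b at 0.541 and 0.511, 0.993 and 0.852, and 0.59 and 0.655 RPKM. All 3 genes rose in heterozygous against wild type, also under both other scalings. The part of these cells in the ligand values was not tested.

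Ccl11 (eotaxin), which draws eosinophils through Ccr3, followed another order than its neighbours. It stood at 0.126 and 0.133 RPKM in wild type, 0.928 and 0.771 in heterozygous and 0.835 and 0.907 in knockout cells. Wild type rested on 8 reads in both libraries together, heterozygous on 59 and knockout on 88. The log2 difference from wild type was 0.73 ± 0.06 in knockout and 0.71 ± 0.06 in heterozygous cells (adjusted p = 4.86e-05 and 0.00013). Ccl11 was tested only because of its heterozygous and knockout values, so nothing is read from these p-values. The RPKM ratio was 6.73 for knockout, with a counting interval of 3.27 to 16.1, and 6.56 for heterozygous, with an interval of 3.13 to 16. Both mutant genotypes lay above wild type and overlapped each other, with a log2 difference of 0.02 ± 0.06.

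Genes beside each other thus did not share 1 order of genotypes. On chromosome 5, RefSeq places Cxcl5, Ppbp, Pf4, Cxcl3, Cxcl15, Cxcl1 and Cxcl2 in that order. Ppbp, the platelet basic protein also known as Cxcl7, is not a member by symbol but was higher per length than every member, at 153 and 154 RPKM in wild type, 290 and 298 in heterozygous and 292 and 289 in knockout. Its log2 differences from wild type were 0.92 ± 0.02 and 0.93 ± 0.02 in knockout and heterozygous cells (adjusted p = 5.22e-08 and 1.48e-07). Pf4, the platelet factor next to it, stayed at or below 0.139 RPKM, and Cxcl2 at or below 0.351. Cxcl5 and Ppbp therefore had the same order of wild type against both mutants, Cxcl3 was highest in heterozygous cells, and Pf4 between them was near 0.

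**Figure D3:**
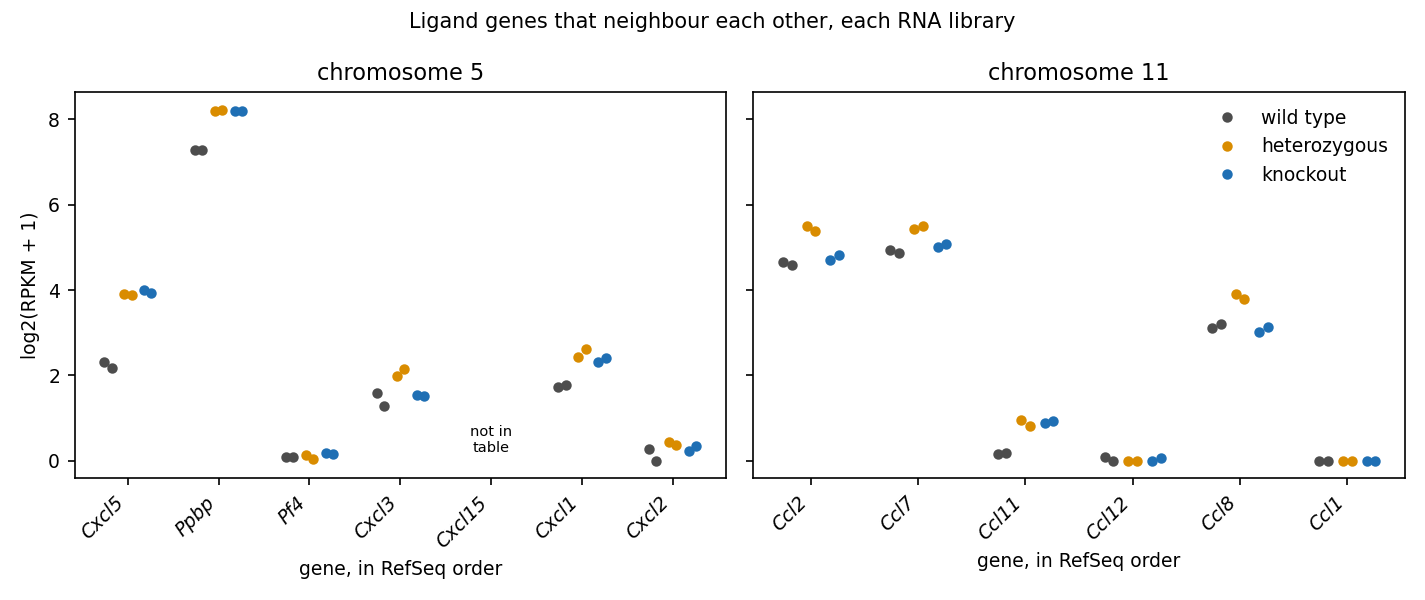
Values of log2(RPKM + 1) in each RNA library (y axis) for the ligand genes that neighbour each other on chromosomes 5 and 11, placed in their RefSeq order (x axis), with spacing not to scale. Ppbp is far above its neighbours, and Ccl12 and Ccl1 are at or near 0 between or beside Ccl11 and Ccl8.

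Cxcl14 (BRAK) draws monocytes and dendritic cells in healthy skin. It stood at 16.2 and 16.5 RPKM in wild type, 28.2 and 28.3 in heterozygous and 38.1 and 38.1 in knockout. The libraries of a genotype lay very close together, and the 3 genotypes were separate, in the order of disrupted copies. The log2 differences were 1.17 ± 0.03 for knockout against wild type, 0.75 ± 0.03 for heterozygous against wild type and 0.42 ± 0.03 for knockout against heterozygous (adjusted p = 1.6e-07, 2.14e-06 and 3.79e-05). Each genotype had at least 1721 reads of the gene.

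Cxcl12 (SDF-1), which holds Cxcr4-bearing stem cells and lymphocytes in their niches, stood at 0.875 and 0.92 RPKM in wild type, 1.48 and 1.56 in heterozygous and 0.764 and 0.789 in knockout. Heterozygous cells were highest and knockout cells lowest. Its log2 difference was 0.41 ± 0.05 for heterozygous against wild type and -0.50 ± 0.05 for knockout against heterozygous (adjusted p = 0.000649 and 0.000274). The difference of -0.10 ± 0.05 between knockout and wild type did not pass (adjusted p = 0.135), although it did under quantile normalization (-0.30, adjusted p = 0.00163) and median scaling (-0.20, 0.00905).

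Cxcl16, a membrane-bound ligand of Cxcr6, stood at 0.427 and 0.512 RPKM in wild type, 0.495 and 0.436 in heterozygous and 0.864 and 0.88 in knockout. The knockout libraries lay above the other 4, which overlapped. Its log2 difference was 0.35 ± 0.06 against either genotype (adjusted p = 0.00128 against wild type and 0.00209 against heterozygous). Cxcl16 was tested only because of its knockout values, so nothing is read from these p-values. The gene overlaps Zmynd15 in RefSeq, which stood at or below 0.0768 RPKM. Cxcl10 (IP-10), an interferon-induced T cell attractant, lay between 0.56 and 0.666 RPKM in all 6 libraries and passed the test in no comparison. It was called lower in knockout against wild type under quantile normalization (-0.26) and median scaling (-0.16).

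**Figure D4:**
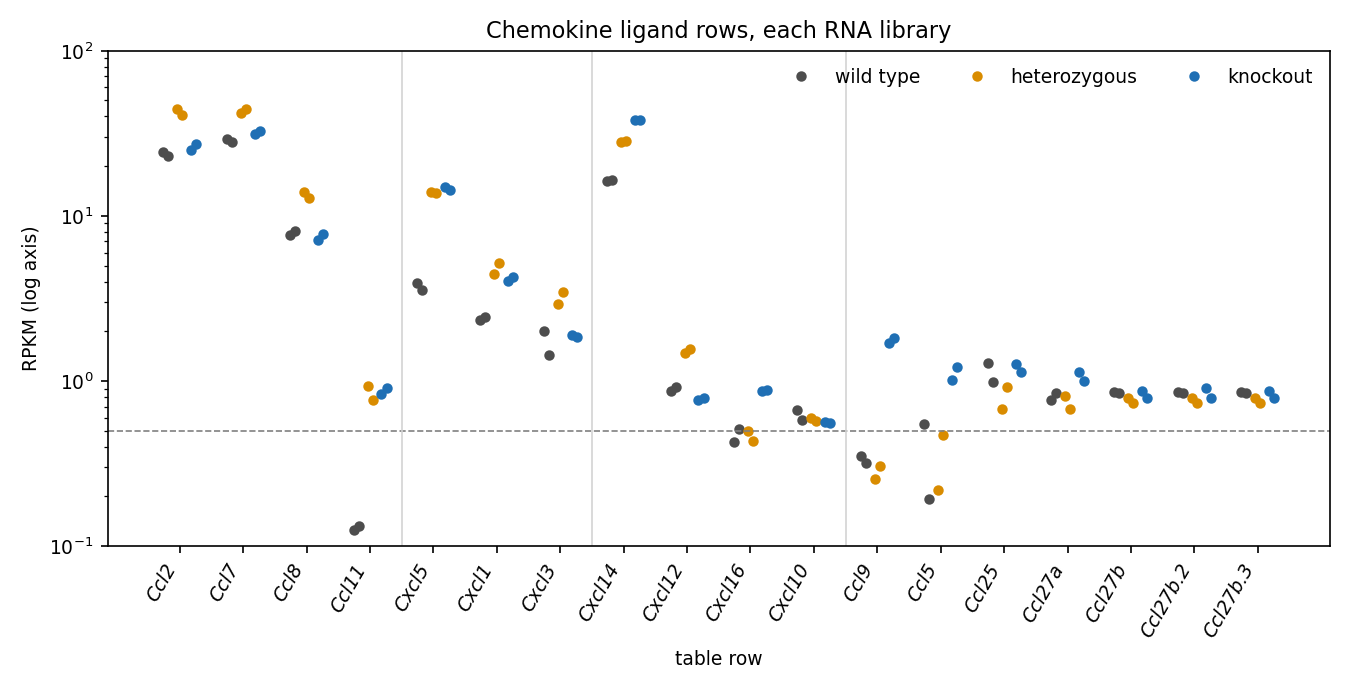
RPKM on a log axis (y axis) of the 18 rows at 0.5 RPKM or more in 2 libraries (x axis), with 1 point per library and the 0.5 RPKM level dashed. Levels run from 0.126 RPKM for Ccl11 in wild type to 44.5 for Ccl2 in heterozygous cells.

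Ccl9 (MIP-1 gamma), a Ccr1 ligand made by myeloid cells and osteoclasts, had the largest log2 difference between knockout and heterozygous cells among the 18 rows. It stood at 0.351 and 0.317 RPKM in wild type, 0.255 and 0.304 in heterozygous and 1.69 and 1.83 in knockout. Knockout lay far above the other 4 libraries. The log2 difference was 1.05 ± 0.06 against wild type and 1.11 ± 0.06 against heterozygous cells (adjusted p = 5.72e-06 and 1.3e-05). Ccl9 was tested only because of its knockout values, so the differences are a description and nothing is read from these p-values. The RPKM ratio of knockout to wild type was 5.27, with a counting interval of 3.99 to 7.01. Heterozygous and wild type differed by -0.06 ± 0.06, which did not pass, although it did under quantile normalization (-0.17, adjusted p = 0.0439).

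Ccl5 (RANTES), a T cell and monocyte attractant, stood at 0.549 and 0.192 RPKM in wild type, 0.219 and 0.473 in heterozygous and 1.02 and 1.22 in knockout. The libraries of the first 2 genotypes were spread widely and overlapped, with 12 reads in each genotype, and knockout, with 56 reads, lay above them. The log2 difference was 0.64 ± 0.14 against wild type and 0.66 ± 0.14 against heterozygous (adjusted p = 0.00505 and 0.00674). As for Ccl9, nothing is read from these p-values, because Ccl5 was tested only because of its knockout values. The RPKM ratio to wild type was 3.03, with a counting interval of 1.51 to 5.85.

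Macrophage markers moved with Ccl9, Ccl5 and Cxcl16. Of 19 marker symbols listed (Emr1 and Adgre1 name the same gene), 18 were in the table and 8 at 0.5 RPKM or more in 2 libraries. Their summed level was 9.34 to 10.6 RPKM in wild type, 7.75 to 8.56 in heterozygous and 57.1 to 57.3 in knockout, and 7 of the 8 were called higher in knockout against wild type under all 3 scalings. Of the 8, Tyrobp, Fcer1g and C1qa were tested only because of their knockout values, which favours a difference. The count is therefore a description (41.4% of all genes tested were called higher). Lyz2, the lysozyme of myeloid cells, went from 3.2 and 3.06 to 23.8 and 23.5 RPKM. Of the defining markers, Csf1r stood at 2.76 and 2.73 in knockout, Emr1 at 0.397 and 0.275 and Ptprc at 0.0576 and 0.0683, and none was at 0 in every library. Whether macrophages had a part in the 3 ligands was not tested.

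**Figure D5:**
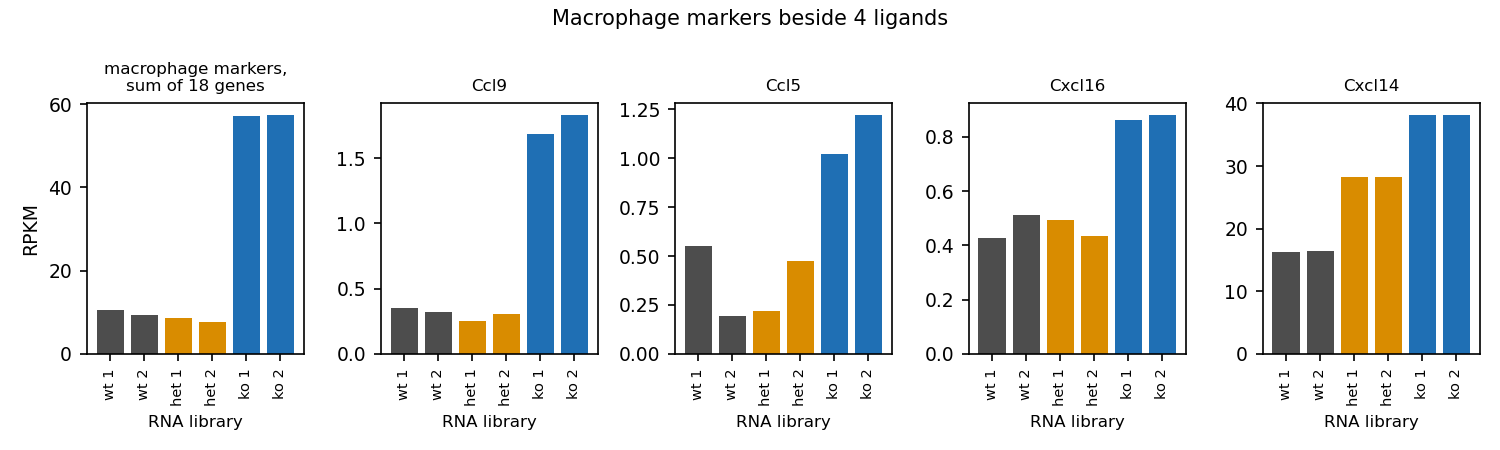
Summed RPKM of 18 macrophage markers and RPKM of 4 ligands (y axes, each from 0) in each of the 6 RNA libraries (x axis). The marker sum, Ccl9, Ccl5 and Cxcl16 are highest in both knockout libraries and lower in the other 4, while Cxcl14 is also higher in heterozygous (28.2 and 28.3) than in wild-type cells (16.2 and 16.5).

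Ccl25 (TECK), a ligand of thymus and gut, stood at 1.29 and 0.99 RPKM in wild type, 0.681 and 0.926 in heterozygous and 1.26 and 1.14 in knockout. Heterozygous cells lay below the other genotypes, which overlapped. Its log2 difference of 0.29 ± 0.09 between knockout and heterozygous passed (adjusted p = 0.0343) and was lost in 6 of 13 alternative fits. Those included the fits without heterozygous library 1 (0.19, adjusted p = 0.165), knockout library 1 (0.25, 0.155) and knockout library 2 (0.33, 0.0795). The difference of heterozygous from wild type, -0.25 ± 0.09, missed the threshold (adjusted p = 0.0583) and passed without wild-type library 2 (-0.35, 0.0325) or heterozygous library 2 (-0.35, 0.0342).

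Ccl27a (CTACK), a skin ligand for Ccr10-bearing T cells, stood at 0.763 and 0.848 RPKM in wild type, 0.806 and 0.68 in heterozygous and 1.14 and 0.998 in knockout. Knockout lay above the other libraries, which overlapped. The log2 difference was 0.19 ± 0.06 against wild type (adjusted p = 0.0303) and 0.25 ± 0.06 against heterozygous (adjusted p = 0.0167). The first call was lost in 5 of 12 alternative fits, among them those without wild-type library 1 (0.16, adjusted p = 0.128) and knockout library 1 (0.15, 0.167), and its sign turned under quantile normalization (-0.02, 0.818). The second was lost without heterozygous library 2 (0.19, adjusted p = 0.0862), without knockout library 1 (0.20, 0.106) and under quantile normalization (0.14, 0.107).

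The 3 Ccl27b rows lay between 0.731 and 0.907 RPKM and passed the test in no comparison. They are near-identical copies on chromosome 4, which also carries Ccl27a, so reads could be split or shared among these rows. Of the Ccl27b rows, 2 held the same values. Ccl27a overlaps Il11ra1 and Ccl27b overlaps Il11ra2 in RefSeq. These receptor genes stood at 11.4 to 13.4 and 6.02 to 7.01 RPKM, several times above the ligands. Reads of such overlapping genes cannot be told apart unless counting used the strand. The sources used here do not say whether it did, and the Ccl27 values are uncertain for that reason. The same holds for Ccl25 and Ccl5, which overlap other RefSeq genes.

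Members below the level were listed at 0 in every library for 17 rows, of 9 symbols: Ccl1, Ccl4, Ccl19, Ccl21a, Ccl21b, Ccl21c, Ccl24, Ccl26 and Cxcl13. Another 10 symbols had a value in at least 1 library: Cxcl2, Cxcl9, Cxcl11, Cxcl17, Ccl3, Ccl6, Ccl12, Ccl17, Ccl20 and Ccl22. Their highest values ran from 0.024 RPKM for Ccl22 to 0.351 for Cxcl2. Cxcl2, another neutrophil attractant, was the row just outside the level, with a second-highest value of 0.291 RPKM, and Cxcl10 was just inside with 0.593. Cxcl11 is annotated as a transcribed pseudogene in RefSeq. The lymphoid ligands Ccl19, Ccl21a and Cxcl13 were thus listed at 0 in all 3 genotypes at this depth. Ccl19 and Ccl21a have repeated rows, so the handling of reads that match several copies could bear on their values, which was not tested.

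Among chemokine receptors 21 of 22 listed symbols (Cxcr7 and Ackr3 name the same gene) were in the table and 4 were tested. All 4 rose in knockout against wild type, also under both other scalings, and 2 of the 4 (Cxcr7 and Cxcr6) in heterozygous against wild type, where the call of Cxcr6 was lost under both. Ccr1 and Cxcr4 reached the level only through knockout, so nothing is read from the knockout count beside the 41.4% of all genes tested that were called higher (34.1% in heterozygous cells). Cxcr7, a scavenging receptor for Cxcl12, stood at 2.09 and 1.69 RPKM in wild type, 4.92 and 4.49 in heterozygous and 3.95 and 4 in knockout. Ccr1, the receptor of Ccl9 and Ccl5, stood at 0.0835 and 0.063, 0.105 and 0.113, and 0.848 and 0.721 RPKM, high in the libraries where Ccl9 and the macrophage markers were high. Cxcr4, the signalling receptor of Cxcl12, rose in knockout by a log2 difference of 0.40 ± 0.05 and Cxcr6, the receptor of Cxcl16, by 0.40 ± 0.06. Cxcr2, the receptor of Cxcl1, Cxcl3 and Cxcl5, stayed at or below 0.0296 RPKM and Ccr2, the receptor of Ccl2, at or below 0.00579 in all 3 genotypes. Cxcr7 aside, the 3 other atypical receptors in the table did not reach the level.

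Among 3 tested ligands under other symbols (Ppbp, Mif and Cx3cl1) all rose in knockout cells, as did 41.4% of all genes tested, with a median of 0.31 (0.07 over all genes tested), and Cx3cl1 lost its call under both other scalings (0.11 in each). Mif, a cytokine that also binds chemokine receptors, went from 506 and 509 RPKM in wild type to 632 and 624 in knockout, with 581 and 594 in heterozygous cells. Cx3cl1 (fractalkine) differed by 0.22 ± 0.07 in knockout against wild type (adjusted p = 0.0298).

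Inducers of chemokines moved unevenly. Of 14 tested cytokines and receptors 10 rose and 2 fell in knockout against wild type (median 0.22), and 8 rose and 0 fell in heterozygous cells (median 0.19). Of all genes tested, 41.4% were called higher and 24.7% lower in knockout and 34.1% and 15.8% in heterozygous cells. In knockout, quantile normalization gave 7 and 2 and median scaling 6 and 2. Il6st, the shared signalling receptor of the interleukin 6 family, went from 29.7 and 29.6 RPKM in wild type to 58 and 57.6 in heterozygous and 78.6 and 78.1 in knockout. This is the order seen for Cxcl14. Il1r1, the interleukin 1 receptor, stood at 2.34 and 2.51, 3.92 and 4.12, and 6.57 and 7.13 RPKM. Il1rl1, the receptor of interleukin 33, and Tnfrsf1b, a tumor necrosis factor receptor, were highest in heterozygous cells, at 85.4 and 86.2 and at 5.95 and 6.13 RPKM. The inflammatory cytokines themselves were scarce: Il1b and Csf2 were listed at 0 in every library, Il1a and Tnf stayed at or below 0.0543 and 0.0185 RPKM, and Il6 at or below 0.176.

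Of 16 NF-kB genes, 5 rose and 5 fell in knockout against wild type (median 0.04, and 0.07 over all genes tested), where 41.4% of all genes tested rose and 24.7% fell. The split became 2 and 6 under quantile normalization and 3 and 7 under median scaling. Bcl3 and Nfkbiz, nuclear cofactors of NF-kB, rose in both mutant genotypes, Bcl3 from 1.47 and 1.56 RPKM in wild type to 2.61 and 2.67 in heterozygous and 3.71 and 4.08 in knockout. Tnip1, an inhibitor of the pathway, fell by 0.25 and 0.29 on the log2 scale in knockout and heterozygous cells. Ikbkg, a subunit of the kinase that frees NF-kB, fell by 0.24 in knockout and rose by 0.22 in heterozygous cells. Of 13 interferon signalling genes 7 rose and 2 fell in knockout (median 0.27, and 0.07 over all genes tested), beside the same shares of all genes tested, with 6 and 4 under quantile normalization and 7 and 4 under median scaling. Socs3, a feedback inhibitor, rose by 0.85 ± 0.04, Jak2 by 0.72 ± 0.06 and Jak1 by 0.31 ± 0.03, while Ifngr2, a chain of the interferon gamma receptor, fell by 0.31.

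Of 7 tested proteases that trim chemokines 4 rose and 1 fell in knockout (median 0.23), beside 41.4% higher and 24.7% lower of all genes tested, with 5 and 2 under quantile normalization and 4 and 3 under median scaling. Mmp9, a gelatinase that cleaves CXC ligands, stood at 1.82 and 1.97 RPKM in wild type, 0.488 and 0.602 in heterozygous and 13.3 and 12.9 in knockout cells, again high where the macrophage markers were. Mmp2 and Adam10, the latter able to shed Cxcl16, rose by 0.23 ± 0.02 and 0.51 ± 0.04, and Ctsl fell by 0.26. Of 17 heparan sulfate genes 8 rose and 7 fell (median 0.03), beside the same shares of all genes tested, and under median scaling 6 rose and 9 fell. Sdc4, a cell-surface carrier, rose by 0.87 ± 0.02 and Sulf2, which trims sulfate groups, by 0.43 ± 0.03, while Sdc1 and Gpc4 fell by 0.59 and 0.54.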

How the data were processed

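The deposited table holds 1 value per gene row for each of 6 RNA libraries. Per the file headers the values came from coverage tracks, and the submitters' processing notes name TopHat and mm9. RNA was poly(A)-selected and libraries were made by a dUTP method, per the labels' protocols. The unit was identified as RPKM from the deposited numbers, which fit whole aligned bases for reads counted as 37 bases. A gene length was found for 18885 of 18888 genes above 0. Each length is the smallest that fits, so it can be far too short for genes with few reads. The number of lengths found is therefore no check of the unit. Reads behind a value were computed from these lengths and can be fractional. A read unit longer than 37 bases would give fewer reads and wider counting intervals. Between 62.6% and 64.4% of reads fell in gene rows.

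The 12065 genes that reached 0.5 RPKM in 2 or more libraries were fitted as log2(RPKM + 1) with limma 3.58.1 in R 4.3.3 (lmFit and trended eBayes, 1 mean per genotype, leaving 3 degrees of freedom). Tests were two-sided, and p-values were adjusted over all genes by Benjamini-Hochberg with a threshold of 0.05. This scale understates changes of low genes. An exact permutation test of 2 against 2 libraries cannot go below p = 0.333 and was not used. Errors are SE of the model, and intervals are exact (Clopper-Pearson) 95% intervals for the ratio of 2 read totals. The fit was also run on simulated data with a small spread between libraries, which does not give the error rate of the calls here. Replicate libraries varied slightly beyond counting noise for the typical gene (1.16 to 1.25 times its variance) and were kept as 2. Replicate numbers did not pair the libraries. Alternatives were pseudocount, filter, scaling, replicate block, samples in the fit and each library left out, and, added after seeing the data, the Ccl27b rows counted as 1.

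Named genes are all members at the level, up to 4 genes with the smallest p per list of 8 pathway lists, and markers, inducers and receptors named for their role, chosen after their values were seen. Endothelial markers summed to at most 1.36 RPKM and keratinocyte markers to at most 0.871. Members and lists were chosen with earlier results of these data known. All 35 symbols matched RefSeq (GRCm38.p6), which gave chromosomes, gene order, overlaps and promoter sequences only, since the files use mm9. Some marker genes are not reported here.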

Additional observations from a re-analysis of the deposited data

How the results depend on the processing

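Counts of ligand rows called lower against wild type, 0 in both comparisons, became 5 under quantile normalization and 3 under median scaling in knockout as well as heterozygous cells. Without 1 library at a time, rows called higher numbered 8 to 10 for knockout against wild type, 9 for heterozygous against wild type and 4 to 6 for knockout against heterozygous, and rows called lower 0, 0 to 1 and 5 to 6. The 1 row was Ccl25, without wild-type library 2 or heterozygous library 2. With the replicate number as a replicate block, 9, 9 and 5 rows were higher and 0, 0 and 6 lower; replicate numbers did not pair the libraries (correlations of deviations -0.09, -0.06 and 0.06). Besides Ccl27a (-0.02 under quantile normalization), only values that were not called changed sign, and none was called afterwards. For knockout against wild type these were Cxcl3 (-0.14 under quantile normalization, -0.02 under median scaling, -0.06 to 0.24 without 1 library), Ccl25 (-0.18, -0.07 and -0.06 to 0.14 in the same fits) and, without 1 library, Ccl27b.2 (-0.05 to 0.04) and the other Ccl27b rows (-0.05 to 0.01). For heterozygous against wild type, without 1 library, they were Ccl27a (-0.10 to 0.00), Cxcl16 (-0.05 to 0.04), Cxcl10 (-0.07 to 0.01) and Ccl5 (-0.21 to 0.17). For knockout against heterozygous they were Ccl11 (-0.08 under quantile normalization, -0.00 under median scaling, -0.04 to 0.08 without 1 library) and the Ccl27b rows (-0.02, -0.04 and -0.04 under quantile normalization). The cause was not tested. The filter at 1 RPKM left out rows and gave 7, 8 and 4 higher and 0, 0 and 5 lower. With no filter, 10, 9 and 7 rows were higher and 0, 0 and 5 lower. Cxcl9 and Ccl3, at or below 0.0779 RPKM, were then called higher in knockout against both other genotypes. Ccl2 and Ccl27a lost their calls in knockout against wild type, and Ccl25 lost its call in knockout against heterozygous. Ccl5 and wild-type Ccl11 rest on few reads, which limits their precision.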
